A study of Mus musculus with 4 samples.

Results

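The genes described here are 8 surface ligands through which a cell holds or instructs leukocytes: the adhesion molecules Icam1 and Vcam1, and the T cell ligands Cd274, Pdcd1lg2, Icosl, Pvr, Cd80 and Cd86. They were chosen by symbol for their known function, from a table of 24084 genes, and all 8 had a row. Of these, 4 passed the filter on low counts and were among the 12920 genes tested. The table comes from hair follicle stem cells, the sorted epithelial cells that fuel hair regrowth, taken from the skin of C57BL/6 mice aged 7 to 10 weeks, 4 days after depilation, the removal of hair shafts that starts a new growth phase. All mice received diphtheria toxin (DT) at 15 ng/g into the peritoneum. The 2 WT libraries, replicates A and C, come from mice that keep their regulatory T cells. The 2 Foxp3-DTR libraries, replicates C and D, come from mice whose Foxp3-expressing cells carry the toxin's receptor, so that DT depletes regulatory T cells. The comparison asks how stem cell expression differs when these T cells are missing. The labels do not say whether a library is 1 animal or a pool, so the p-values below reflect variation among these libraries and nothing wider.

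ICAM1 binds the integrin LFA-1 on leukocytes and lets T cells attach to epithelial cells, and VCAM1 binds the integrin VLA-4. CD80 and CD86, the classical costimulatory ligands of antigen-presenting cells, bind CD28 to activate a T cell and CTLA-4 to restrain it, and ICOSL binds ICOS. PD-L1 (Cd274) and PD-L2 (Pdcd1lg2) bind the inhibitory receptor PD-1, and PVR (CD155) binds the activating receptor DNAM-1 and the inhibitory receptor TIGIT. Keratinocytes at rest make little ICAM1 or PD-L1. Inflammatory cytokines that act through NF-kappaB and STAT factors are known to induce both.

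Gene counts per library ranged from 13911765 to 15923154. The follicle stem cell markers, 13 genes including Cd34 and Krt15, summed to 38200 to 52200 in every library, in CPM (reads of a gene relative to all gene reads of its library, after TMM scaling). Single markers moved within that sum. Krt5 alone had 15400 and 14500 CPM in WT A and C and 11800 and 12800 in Foxp3-DTR C and D. Postn went from 4650 and 9570 to 21300 and 20200, and Lhx2 from 789 and 804 to 425 and 439. In edgeR's test 0 of the 13 passed, and 6 had a positive and 7 a negative fold change. DESeq2 called 3 higher and 2 lower, against 3.61% and 3.79% of all its genes. Foxp3 had 0 counts in all 4 libraries, so the depletion itself cannot be checked here. Markers of leukocytes were mostly low. At most 10 counts in any library were found for 10 of 17 genes of Langerhans cells, macrophages and dendritic cells. The same held for 7 of 13 T cell genes. The T cell markers were uneven, with a sum of 13.9 CPM in WT A and 2.55 to 2.85 CPM elsewhere. Cd3g, Cd3e, Cd247 and Zap70 had 50, 15, 16 and 16 reads in WT A, and at most 5 in any other library. Lck had 86 reads in WT A and 28 to 43 elsewhere. Cd8a went the other way, with 12 reads in Foxp3-DTR C alone. For the pan-leukocyte gene Ptprc, WT A had 1.69 CPM, WT C 0.308, Foxp3-DTR C 0.133 and Foxp3-DTR D 0. Endothelial markers summed to 8.62 to 24.2 CPM, with Cdh5, Kdr, Tie1, Emcn and Cldn5 at 0 counts throughout. Most of that sum was Lyve1, Egfl7 and Tek, at up to 11, 8.03 and 4.74 CPM. Of the 4 endothelial markers tested 0 passed in edgeR's test, with 1 positive and 3 negative fold changes. Fibroblast and dermal papilla markers summed to 283 to 435 CPM, with Pdgfrb, Lum, Dpt, Mfap5 and Corin at 0. Most of that sum was Fbln1, at 388 and 311 CPM in WT A and C and 253 and 278 in Foxp3-DTR C and D. Col1a1 stood at 15.1 and 16.4 CPM in WT and 3.05 and 5.74 in Foxp3-DTR (edgeR adjusted p = 0.0982). Of the 5 fibroblast markers tested 0 passed in edgeR's test, with 1 positive and 4 negative fold changes. DESeq2 tested 6 of these markers and called 1 lower and 0 higher. Interfollicular epidermis markers split the replicates of both groups, at 9990 CPM in WT A and 8010 in Foxp3-DTR D against 1850 in WT C and 1870 in Foxp3-DTR C. Xist, the female-specific RNA of the silenced X, stood at 861 CPM (A) and 2480 (C) in WT and at 1.86 (C) and 0 (D) in Foxp3-DTR, while 4 Y-linked genes summed to 0 in both WT libraries and to 319 and 260 CPM in Foxp3-DTR C and D. The title codes DEP2 and DEP3 part the libraries in the same way, so sex and that code cannot be told apart from group in any comparison below.

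**Figure D1:**
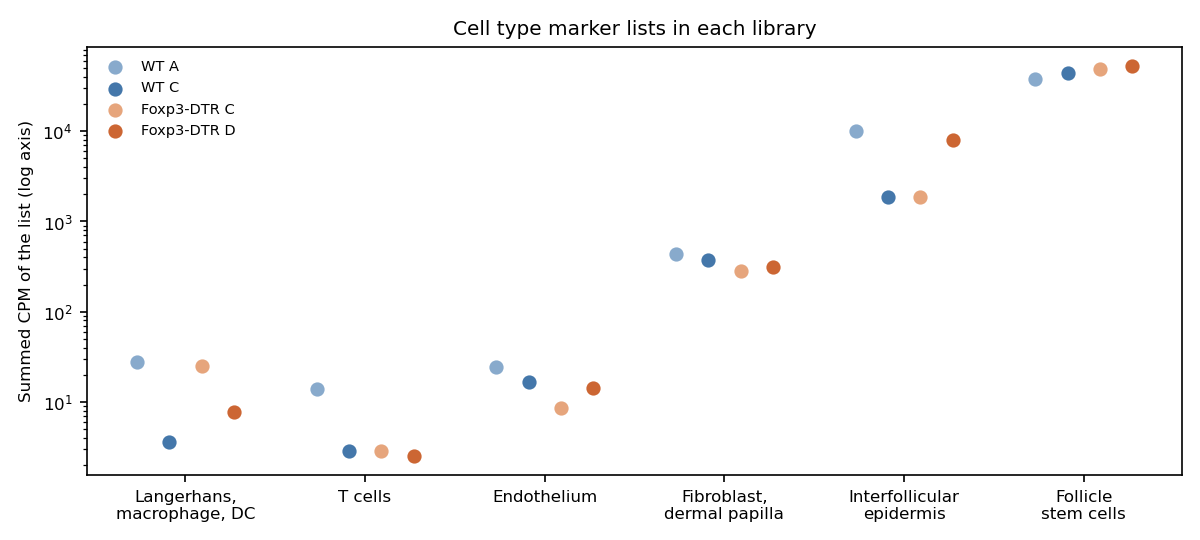
Summed CPM (log axis) of 6 cell type marker lists, 1 point per library. Follicle stem cell markers lie between 38200 and 52200 CPM in all 4 libraries, and T cell markers between 2.55 and 13.9 CPM.

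Icam1 rose in Foxp3-DTR, and no other of the 8 ligands passed the test. WT A had 19.6 CPM and WT C 25.2 (279 and 409 reads), while Foxp3-DTR C had 335 CPM and Foxp3-DTR D 224 (5047 and 3167 reads). Both Foxp3-DTR libraries lay far above both WT libraries, and the lower of them was 8.92-fold above the higher WT value. Between replicates the higher value was 1.28 times the lower in WT and 1.49 times in Foxp3-DTR. The group means were 22.4 ± 3.9 and 280 ± 78 CPM (SD, n = 2 each). The fitted log2 fold change was 3.64 ± 0.28 (SE), 12.5-fold, with an edgeR adjusted p of 0.00503. Over all tested genes 0.82% were called higher and 0.426% lower, and among the 4 tested ligands 1 was called higher and 0 lower, with 1 of the 4 at an unadjusted p under 0.05, as were 14.6% of all tested genes. DESeq2, which called 3.61% of all its genes higher and 3.79% lower, and limma-voom, which called 0.542% and 0.178%, also had 1 of the ligands higher and 0 lower. In sorted bulk cells, more Icam1 RNA per cell and more cells that make it cannot be told apart.

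Icam1 lies on mm10 chromosome 9, from 21015985 to 21028817 on the plus strand. An annotated antisense gene shares 511 of its 4360 exonic bases and has no row of its own in the table. Relative to other genes, Icam1 moved from the lower part of the expressed range towards the top. Per kilobase of exon its level was higher than that of 36.5% of the tested genes in WT A and 41.6% in WT C. It was higher than that of 96.3% (C) and 93.2% (D) of them in Foxp3-DTR.

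The Icam1 promoter is shown because this is the gene that rose. The window (chr9:21015690-21015989, plus strand, RefSeq, GRCm38.p6) runs from 250 bases before to 50 bases after the transcript start and is printed 5′ to 3′, with motif matches in capitals.
Icam1: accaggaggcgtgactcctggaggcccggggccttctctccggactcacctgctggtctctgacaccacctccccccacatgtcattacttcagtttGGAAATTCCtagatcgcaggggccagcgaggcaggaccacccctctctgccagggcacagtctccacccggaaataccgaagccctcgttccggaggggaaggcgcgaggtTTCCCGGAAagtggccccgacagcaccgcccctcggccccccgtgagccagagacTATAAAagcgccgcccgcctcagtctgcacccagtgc
The first match, 153 to 145 bases before the start, is the palindromic kappaB sequence GGAANTTCC, a form bound by NF-kappaB dimers. The next, 42 to 34 bases before the start, is the GAS element TTCNNNGAA, which STAT dimers recognise. The TATA box letters TATAAA lie 14 to 19 bases after the RefSeq start and before the GENCODE gene start at 21015985. Both strands were searched, and no match overlapped another. Of 32851 promoter windows of this length, 0.928% hold the kappaB palindrome, 8.3% the GAS element and 13.6% the TATA letters. The window held no match to the NF-kappaB consensus (8.46% of windows), to the ISRE core GAAANNGAA of interferon response elements (8.56%) or to the AP-1 site TGANTCA (7.81%). The motifs were chosen after the letters had been read, so these shares do not measure how unusual the matches are. A match is only a stretch of letters, and no binding was measured.

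**Figure D2:**
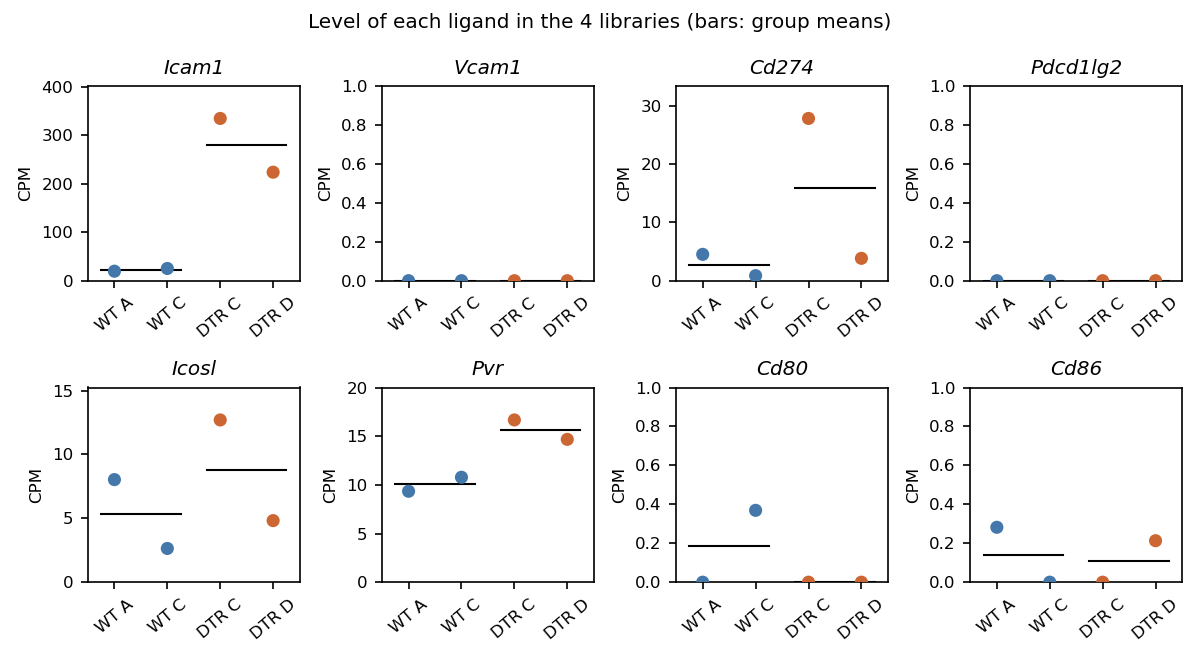
CPM of each of the 8 ligands in the 4 libraries, on linear axes that start at 0, with group means as bars. Icam1 separates the groups (19.6 and 25.2 against 335 and 224 CPM), Vcam1 and Pdcd1lg2 are at 0 throughout, and Cd274 is high in Foxp3-DTR C only (27.8 CPM).

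Vcam1, the other adhesion ligand, was not detected. No read was counted for it in any of the 4 libraries, so its level was at most 0.185 to 0.213 CPM depending on the library (3 counts, counting error only). Any change in Vcam1 was therefore below detection, while Icam1 reached 335 CPM in the same RNA. The ICAM genes next to Icam1 were low and had negative fold changes that did not pass. Icam4, a red cell adhesion protein whose gene starts 0.555 kb after Icam1 ends, stood at 1.76 and 1.72 CPM in WT A and C and at 0.531 and 0.354 in Foxp3-DTR C and D. Icam5, a neuronal adhesion protein 1.48 kb further on, stood at 4.15 and 9.35 CPM in WT and 2.65 and 3.9 in Foxp3-DTR. Their log2 fold changes of -1.95 ± 0.89 and -1.04 ± 0.6 had an edgeR adjusted p of 0.394 and 0.513, and both genes were named after their values were seen.

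Of 16 other leukocyte adhesion ligands 9 were tested, and 0 passed in either direction in edgeR's test, with 2 at an unadjusted p under 0.05. Their median log2 fold change was -0.43, against -0.01 over all tested genes. DESeq2 called 1 of the 9 higher, Cd34 (DESeq2 adjusted p = 0.0284), against 489 of 13559 over all genes. Cd34 had 936 and 1220 CPM in WT A and C and 1710 and 1620 in Foxp3-DTR C and D (edgeR adjusted p = 0.239). The smallest p belonged to Icam2, an endothelial and platelet LFA-1 ligand, at 3.59 and 2.4 CPM in WT A and C and 0.332 and 0.709 in Foxp3-DTR C and D (log2 fold change -2.51 ± 0.85, edgeR adjusted p = 0.234). The vascular ligands Madcam1, Sele, Selp and Glycam1 had 0 counts in every library. The epithelial junction protein F11r, which also binds LFA-1, ran from 334 CPM in WT A to 449 in Foxp3-DTR D, and Alcam, the ligand of CD6 on T cells, from 251 in WT A to 402 in Foxp3-DTR C. Both were thus well expressed in WT, and their fold changes of 0.28 ± 0.19 and 0.33 ± 0.23 (log2) did not pass (edgeR adjusted p = 0.581 and 0.596). Madcam1, Sele, Selp, Glycam1, F11r and Alcam were named after their values were seen.

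Cd274, which encodes PD-L1, had a large fold change that rested on 1 library. WT A had 4.51 CPM, WT C 0.861, Foxp3-DTR C 27.8 and Foxp3-DTR D 3.83, from 64, 14, 419 and 54 reads. As at Icam1, an annotated antisense gene with no row of its own shares exonic bases, here 511 of 3622. The groups overlapped, since Foxp3-DTR D lay below WT A, and the higher value was 5.23 times the lower within WT and 7.26 times within Foxp3-DTR. The log2 fold change of 2.56 ± 1.23 did not pass (edgeR adjusted p = 0.455). It was 0.52 without Foxp3-DTR C and 4.19 without WT A, and passed in 0 of 11 alternatives. DESeq2 gave the smallest adjusted p among them, 0.0829. Markers of antigen-presenting cells were also uneven: the 17 genes summed to 28, 3.57, 25.3 and 7.65 CPM in the same order of libraries. Of that sum Cd74, the invariant chain of MHC class II, made up 17.8, 1.05, 21.8 and 3.83 CPM. Several markers were highest in WT A and had few reads in Foxp3-DTR C, where Cd274 was highest: Csf1r had 32, 0, 3 and 0 reads, Ptprc 24, 5, 2 and 0, Fcer1g 17, 13, 1 and 0, Tyrobp 15, 0, 3 and 0, and Cd207 13, 0, 2 and 0. Cd68 had 17, 17, 29 and 51 reads and Lyz2 0, 6, 7 and 0, while Itgax, Cx3cr1, Mrc1 and Cd163 had 0 counts throughout. The part of these markers in the Cd274 values was not tested.

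Pdcd1lg2, which encodes PD-L2, had 0 counts in all 4 libraries, with the same upper limits as Vcam1. The gene lies 22.8 kb after Cd274 on chromosome 19, from 29410919 to 29471161, so of 2 neighbouring PD-1 ligand genes 1 had measurable RNA. The promoters of the pair are shown because the neighbours differ in detection (chr19:29367188-29367487 and chr19:29410669-29410968, both plus strand, RefSeq, GRCm38.p6, 5′ to 3′, motif matches in capitals).
Cd274: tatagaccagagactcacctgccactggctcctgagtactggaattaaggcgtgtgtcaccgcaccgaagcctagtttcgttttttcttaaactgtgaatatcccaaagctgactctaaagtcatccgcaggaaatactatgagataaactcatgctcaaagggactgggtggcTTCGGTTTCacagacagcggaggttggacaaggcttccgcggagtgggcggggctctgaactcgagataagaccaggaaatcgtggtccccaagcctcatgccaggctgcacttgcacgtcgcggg
Pdcd1lg2: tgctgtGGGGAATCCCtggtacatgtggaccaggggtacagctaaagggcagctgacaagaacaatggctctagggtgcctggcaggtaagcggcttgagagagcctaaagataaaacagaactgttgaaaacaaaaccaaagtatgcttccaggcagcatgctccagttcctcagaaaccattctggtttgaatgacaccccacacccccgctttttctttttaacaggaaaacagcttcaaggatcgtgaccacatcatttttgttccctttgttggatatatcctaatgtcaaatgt
The Cd274 window held 1 match, on the minus strand 76 to 68 bases before the start, to the ISRE core GAAANNGAA, which 8.56% of all windows hold. The core with a further A, found in 3.44% of windows, was not matched there. The other 5 motifs had no match in the Cd274 window. The Pdcd1lg2 window held 1 stretch, 244 to 235 bases before the start, that matches the NF-kappaB consensus on both strands. Neither the kappaB palindrome nor the GAS element of the Icam1 window was found in these 2 windows, which says nothing of elements outside them. Here too the motifs were chosen after the letters had been read.

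Icosl, the ligand of ICOS, had a low and uneven level in both groups. WT A had 8.03 CPM, WT C 2.64, Foxp3-DTR C 12.7 and Foxp3-DTR D 4.82. The groups overlapped, with WT A above Foxp3-DTR D. The log2 fold change of 0.72 ± 0.71 did not pass (edgeR adjusted p = 0.737), and its sign turned to -0.14 without Foxp3-DTR C.

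The CD28 ligands Cd80 and Cd86 were at the limit of detection. Cd80 had 6 reads in WT C (0.369 CPM) and 0 in the other 3 libraries. Cd86 had 4 reads in WT A, 3 in Foxp3-DTR D and 0 in WT C and Foxp3-DTR C, so the highest value was 0.282 CPM. The ratio of Foxp3-DTR over WT for Cd86 was 0.783, with an exact 95% counting interval of 0.115 to 4.63. For Cd80 the same interval ran from 0 to 0.886, and all 6 reads came from a single library. Neither gene was tested. Cd86 and Cd80 are genes of antigen-presenting cells, whose markers differed in where they were found. In WT A, WT C, Foxp3-DTR C and Foxp3-DTR D, Csf1r had 32, 0, 3 and 0 reads and Ptprc 24, 5, 2 and 0. Fcer1g (17, 13, 1 and 0) and Tyrobp (15, 0, 3 and 0) were also highest in WT A. So were Cd207 (13, 0, 2 and 0), Ctss (10, 0, 4 and 0), and Laptm5 and Emr1 (7, 0, 0 and 0 each). Others were highest elsewhere: Cd74 had 253, 17, 329 and 54 reads, Cd68 17, 17, 29 and 51, and Lyz2 0, 6, 7 and 0. The part of such cells in these reads was not tested.

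Among other genes of the B7, butyrophilin and Skint families 1 rose. Of 22 such genes 14 were tested, 1 was called higher and 0 lower, 4 had an unadjusted p under 0.05, and the median of their log2 fold changes was 0.59. The gene called was Vsir, which encodes the inhibitory ligand VISTA and appears in the table as 4632428N05Rik. WT A had 76 CPM and WT C 90.7, against 273 and 242 for Foxp3-DTR C and D, with no overlap. Its log2 fold change was 1.63 ± 0.19 (edgeR adjusted p = 0.0205), and without Foxp3-DTR C the adjusted p was 0.0566. With DESeq2 3 of 15 tested genes of this list were called higher, against 489 of 13559 over all genes. Cd276, the ligand B7-H3, stood between 9.84 and 17.7 CPM with overlapping groups (log2 fold change -0.16 ± 0.39, edgeR adjusted p = 0.91). Btn2a2 was low and went the other way from Vsir, at 1.97 and 1.91 CPM in WT and 0.199 and 0.354 in Foxp3-DTR. Its log2 fold change of -2.78 ± 0.94 did not pass (edgeR adjusted p = 0.232). The butyrophilin-like genes Btnl1, Btnl2, Btnl4, Btnl6, Btnl9 and Btnl10 had 0 counts in every library.

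The Skint genes encode epidermal butyrophilin relatives, of which Skint1 is needed for the skin's own gamma-delta T cells to form. They are close copies of each other, so reads may be split among them and their values are uncertain. Skint2 came nearest to the threshold, at 1.48 and 0.431 CPM in WT A and C and 12 and 10.1 in Foxp3-DTR C and D (log2 fold change 3.54 ± 0.69, edgeR adjusted p = 0.069). Skint1 stood at 7.74, 0.738, 19.2 and 21 CPM in the same order of libraries (2.25 ± 1.02, edgeR adjusted p = 0.425). Skint4 stood at 84.2, 109, 177 and 150 CPM in that order and did not pass (0.76 ± 0.21, edgeR adjusted p = 0.144). Skint9 stood at 42.3 CPM in WT A and 35.6 in Foxp3-DTR D against 2.77 in WT C and 1.92 in Foxp3-DTR C, the same libraries in which the interfollicular markers were high. The part of interfollicular cells in the Skint values was not tested. These Skint genes and the B7 relatives other than Vsir were named after their values were seen.

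Pvr, which encodes CD155, was slightly higher in both Foxp3-DTR libraries and did not pass. WT A had 9.36 CPM, WT C 10.8, Foxp3-DTR C 16.7 and Foxp3-DTR D 14.7. The groups did not overlap, and the replicates were close, with ratios of 1.16 in WT and 1.13 in Foxp3-DTR. The group means were 10.1 ± 1.03 and 15.7 ± 1.4 CPM (SD, n = 2 each). The log2 fold change of 0.64 ± 0.31 had an edgeR adjusted p of 0.426 and lay between 0.55 and 0.75 in all 11 alternatives, passing in 0. Of the 4 tested ligands 2, Icam1 and Pvr, were higher without overlap, and 22% of all tested genes were.

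Of 8 nectin and nectin-like genes, the family of Pvr, 6 were tested and 0 passed in either direction in edgeR's test, with 1 at an unadjusted p under 0.05 and a median log2 fold change of -0.23. The smallest p was that of the epithelial nectin Pvrl1 (Nectin1), at 177 and 130 CPM in WT A and C and 80 and 92.5 in Foxp3-DTR C and D (log2 fold change -0.83 ± 0.22, edgeR adjusted p = 0.126). DESeq2 gave Pvrl1 an adjusted p of 0.0218 and limma-voom called 0 genes of this family. Pvrl2 (Nectin2), which shares DNAM-1 and TIGIT with Pvr, stood between 14.6 and 26.3 CPM with overlapping groups (0.22 ± 0.34, edgeR adjusted p = 0.845) and was named after its values were seen.

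Per kilobase of exon, Icam1 had the highest level of the 8 ligands in each library. Here WT A had 4.5 CPM per kb, WT C 5.77, Foxp3-DTR C 76.8 and Foxp3-DTR D 51.5. In WT, Pvr (1.65 ± 0.169 CPM per kb, SD, n = 2), Icosl (1.15 ± 0.824) and Cd274 (0.741 ± 0.712) followed. Icosl overlapped with both of the others, while both Pvr values (1.53 and 1.77) lay above both Cd274 values (1.24 and 0.238). In Foxp3-DTR, Cd274 (4.36 ± 4.68), Pvr (2.57 ± 0.228) and Icosl (1.9 ± 1.21) overlapped with each other, so their order there is not fixed by these data. Cd80, Cd86, Vcam1 and Pdcd1lg2 were at or below 0.0997 CPM per kb in every library. Icam1 thus made up 49.5% and 68.3% of the summed level of the 8 ligands in WT A and C, and 85.4% and 91.9% in Foxp3-DTR C and D.

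The genes whose levels over the 4 libraries ran closest to Icam1 were Map3k14, Serpina3g, Cebpd, Csf1 and Pde4b, with Euclidean distances of 0.18, 0.26, 0.29, 0.31 and 0.39 between centred log2 CPM. This is a description over 4 libraries. Map3k14, the kinase NIK of the noncanonical NF-kappaB pathway, had 10.3 and 11.3 CPM in the WT pair (A, C) and 165 and 115 in the Foxp3-DTR pair (C, D). Csf1, the growth factor of macrophages and Langerhans cells, stood at 9.01 and 13.3 CPM and then 150 and 87.4. Cebpd, a transcription factor of the acute phase response, and Pde4b, a cAMP phosphodiesterase, had log2 fold changes of 3.8 ± 0.25 and 3.85 ± 0.26. Serpina3g has near-identical relatives, so its log2 fold change of 3.54 ± 0.3 is uncertain. All 5 passed, with edgeR adjusted p from 0.0033 to 0.0159. They were chosen for their likeness to Icam1 in these same libraries, so passing is not separate evidence.

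The other ligands had different companions. Closest to Cd274 were the interferon-induced Isg15 (distance 0.69), the MHC class II gene H2-Ab1 (0.96) and the lipase Lipg (1.12). Isg15 stood at 3.03, 0.615, 10.8 and 2.2 CPM in WT A, WT C, Foxp3-DTR C and Foxp3-DTR D, and H2-Ab1 at 4.72, 0.738, 12.5 and 2.13. As with Cd274, both were highest in Foxp3-DTR C and lowest in WT C, and neither passed (edgeR adjusted p = 0.512 and 0.667). H2-Ab1 is itself a gene of antigen-presenting cells, and Lipg did not pass either (edgeR adjusted p = 0.218). Closest to Icosl were Klk10 (0.5), Osbpl6 (0.56) and Hap1 (0.61), and closest to Pvr were Wdr91 (0.02), Plekha3 (0.05) and Dennd2c (0.05). None of these 6 passed, with edgeR adjusted p from 0.147 to 0.738.

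**Figure D3:**
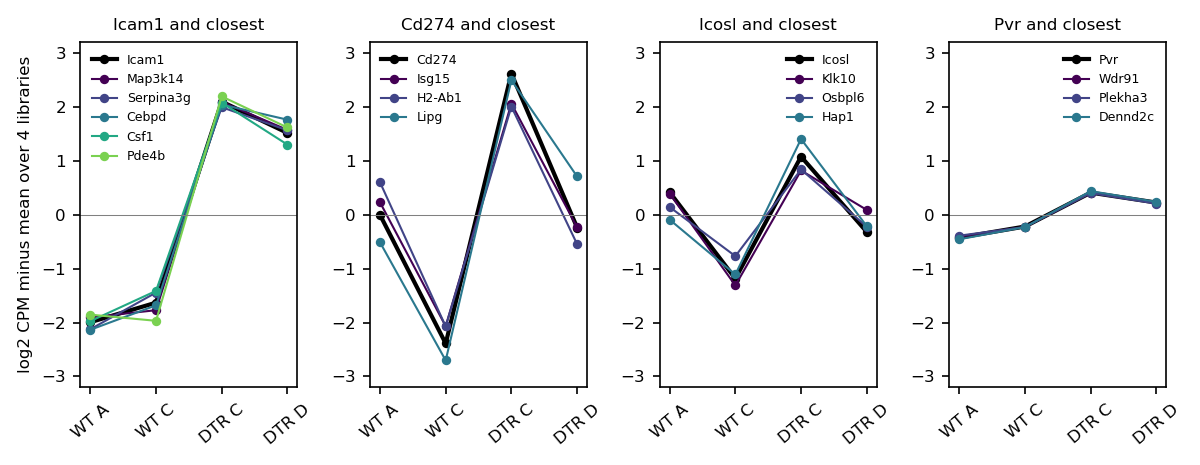
Log2 CPM of Icam1, Cd274, Icosl and Pvr (black) and of the genes closest to each (colours), centred on the mean over the 4 libraries. Icam1 and its 5 companions split the groups, while Cd274 and Icosl are lowest in WT C and highest in Foxp3-DTR C.

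Other ligands that stimulate or restrain lymphocytes were given as a further list of 23 genes, of which 10 were tested. In edgeR's test 1 was called higher and 0 lower, and the median log2 fold change was 0.52. An unadjusted p under 0.05 was found for 6, against 14.6% of all tested genes. The groups did not overlap for 5 genes higher and 4 lower in Foxp3-DTR, against 2839 and 3063 of 12920 over all genes. Among the 6, Sema4a had 132 and 139 CPM in WT and 98.5 and 89.2 in Foxp3-DTR. H60c, also lower in Foxp3-DTR, had 38.8 and 32.3 and then 16 and 24.4 CPM. Neither passed (edgeR adjusted p = 0.216 and 0.251). The gene called was Lgals9, the galectin bound by the inhibitory receptor TIM-3. WT A had 30 CPM and WT C 27.1, against 89.2 and 90.8 for Foxp3-DTR C and D, and the log2 fold change was 1.66 ± 0.19 (edgeR adjusted p = 0.0185). Cd200, an inhibitory ligand known on follicle stem cells, stood at 239 and 349 CPM in WT and 724 and 677 in Foxp3-DTR. The groups did not overlap, and its log2 fold change of 1.25 ± 0.24 did not pass (edgeR adjusted p = 0.0665). With no filter 2 of 16 tested genes of the list were called higher, against 277 of 15688 over all genes. With DESeq2 4 of 12 were, against 489 of 13559. The costimulatory genes Cd40, Tnfsf4, Cd70 and Tnfsf14, and the inhibitory genes Ceacam1 and Ido1, had 0 counts in every library. Cd200, Sema4a, H60c and these 6 genes were named after their values were seen.

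The receptors that bind these ligands are mostly leukocyte genes and were mostly near 0. Of 20 such genes 9 had 0 counts in all libraries, among them Cd28, Ctla4, Icos, Pdcd1 and Tigit, and 2 were tested. Neither passed in edgeR's test, and 0 had an unadjusted p under 0.05. Itgb2, the beta chain of LFA-1, had 1, 3, 11 and 12 reads in WT A, WT C, Foxp3-DTR C and Foxp3-DTR D, at most 0.85 CPM (edgeR adjusted p = 0.429). Itgal, its alpha partner, had at most 9 reads in a library. Itga4, a chain of the VCAM1 receptor, stood between 10.3 and 20.1 CPM with overlapping groups (log2 fold change -0.26 ± 0.4, edgeR adjusted p = 0.845).

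Genes of the cytokine receptors and transcription factors that are known to act on Icam1 and Cd274 had positive fold changes in Foxp3-DTR, and a minority passed. Of 27 listed genes 26 were tested, 6 rose and 0 fell, all 26 had a positive fold change (48.6% of all tested genes did), and the median log2 fold change was 1.29. The list was drawn up with results of these libraries known, so its direction is not independent evidence. In 22 of the 26 the groups did not overlap and Foxp3-DTR was higher, against 22% of all tested genes. Beside Map3k14, the genes that rose were Irf9, a subunit of the interferon response complex (log2 fold change 2.26 ± 0.25, edgeR adjusted p = 0.0184), Relb (1.95 ± 0.28, 0.042), Nfkbia (1.83 ± 0.2, 0.017), Ifngr2 (1.64 ± 0.25, 0.0427) and Stat3 (1.48 ± 0.21, 0.0411). Relb is an NF-kappaB subunit of the noncanonical pathway, Nfkbia the inhibitor of the canonical one, Ifngr2 a chain of the interferon gamma receptor, and Stat3 a factor that binds GAS elements. Stat3 had 226 and 239 CPM in the WT pair (A, C) and 737 and 563 in the Foxp3-DTR pair (C, D), and its adjusted p was 0.14 without Foxp3-DTR C. Relb and Ifngr2 were named after their values were seen. Both lost their calls with limma-voom (adjusted p = 0.0626 for Relb and 0.0599 for Ifngr2), with the edgeR fit not robust (0.0534 for both), without Foxp3-DTR C (0.119 and 0.153) and when WT C was left out (0.0518 and 0.0536). With DESeq2 16 of 26 tested genes of the list were called higher, against 489 of 13559 over all genes. With limma-voom 4 of 26 were, against 70 of 12920.

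Irf1, a factor that drives Cd274 after interferon gamma, had the largest fold change of that list and was named after its values were seen. WT A had 7.04 CPM, WT C 12.9, Foxp3-DTR C 341 and Foxp3-DTR D 116. Both Foxp3-DTR libraries were above WT, but they differed from each other, and the log2 fold change of 4.52 ± 0.7 did not pass (edgeR adjusted p = 0.0741). Rela, an NF-kappaB subunit, stood between 87 and 107 CPM in the 4 libraries (0.18 ± 0.17, edgeR adjusted p = 0.715). The subunit genes Nfkb2 (1.8 ± 0.31, edgeR adjusted p = 0.054), Rel (1.14 ± 0.41, 0.267) and Nfkb1 (0.64 ± 0.2, 0.199) did not pass either. Their groups did not overlap, with Foxp3-DTR higher.

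Proteins that anchor, shed or stabilise these ligands were tested as 11 genes, all of which passed the filter. In edgeR's test 0 passed in either direction, 2 had an unadjusted p under 0.05, and the median log2 fold change was 0.04. The smallest p was that of Actn1, an actin linker that binds the ICAM1 tail, at 476 and 513 CPM in WT A and C and 807 and 730 in Foxp3-DTR C and D (0.64 ± 0.19, edgeR adjusted p = 0.174). DESeq2 gave Actn1 an adjusted p of 0.00832. The other gene at an unadjusted p under 0.05, Actn4, went the other way. It stood at 978 and 760 CPM in WT and 590 and 597 in Foxp3-DTR (-0.55 ± 0.21, edgeR adjusted p = 0.289). The ICAM1 partners Ezr and Msn and the sheddases Adam10 and Adam17 had log2 fold changes of 0.04 ± 0.21, 0.09 ± 0.18, 0 ± 0.18 and -0.02 ± 0.17. Cmtm6, which keeps PD-L1 on the cell surface, stood between 102 and 145 CPM (0.33 ± 0.18, edgeR adjusted p = 0.505). These 5 genes and Actn4 were named after their values were seen, and their values bear on RNA alone.

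**Figure D4:**
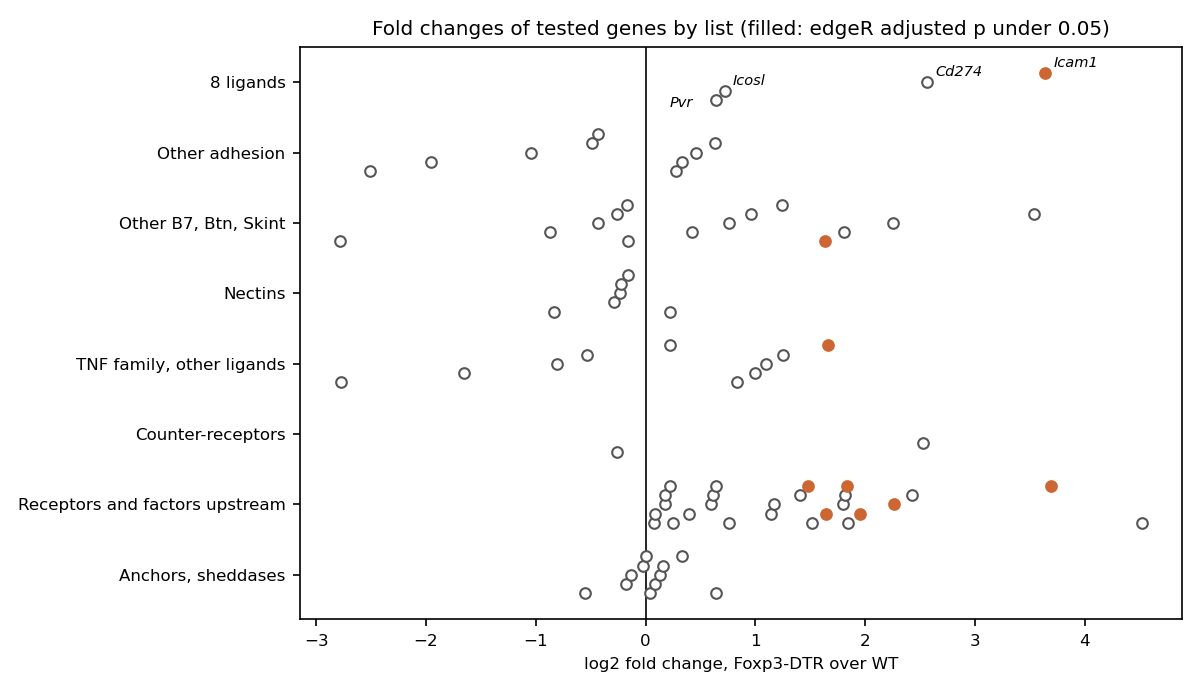
Log2 fold changes, Foxp3-DTR over WT, of the tested genes of each list, 1 point per gene, filled where the edgeR adjusted p is under 0.05. Of the 8 ligands 4 appear and Icam1 alone is filled (3.64), while all 26 tested receptors and factors upstream lie to the right of 0.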

How the data were processed

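Poly(A) RNA of sorted follicle stem cells was sequenced in 4 libraries, 2 per group. The deposited values are counts, whole reads per gene symbol in each library, with no normalization per the file headers. The submitters' processing notes name mm10 as the build and list HTSeq (0.6.1), TopHat2 (2.0.12), Bowtie2 (2.1.0.0) and SAMtools (0.1.19.0), with CASAVA (1.8.2). The sources used here give neither the annotation nor whether counting used strand. Rows that name no gene took 62% to 70.1% of a library's counts and were left out. The 8 genes were found by symbol and fitted within the whole table: edgeR 4.0.16 in R 4.3.3, TMM factors, filterByExpr, robust glmQLFit and glmQLFTest, Benjamini-Hochberg adjustment over 12920 genes, threshold 0.05. The SE of a log2 fold change is its size over the square root of the F statistic. CPM uses TMM library sizes. CPM per kb divides by the union of GENCODE M21 exons (GRCm38, the assembly named mm10). A count of 0 allows up to 3 counts. The fit was checked on simulated counts. Alternatives were DESeq2 1.42.0, limma-voom (limma 3.58.1), DESeq2 size factors, other filters and a fit that was not robust. Each library was also left out in turn, which leaves 1 library in its group, so spread within a group comes from the other group alone. A further alternative, chosen after seeing the data, left out genes on X and Y.

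The members and lists were chosen with earlier results of these data known. Named genes are the 8 members, up to 4 passing genes of each of 7 lists by smallest p (or the smallest p where none passed), the 5 genes closest to Icam1 and the 3 closest to each other tested member among genes whose mean log2 CPM reached 2, and 7 genes that check the labels. Closeness is the Euclidean distance between log2 CPM values (prior count 0.5) centred on their mean over 4 libraries. Other genes were named after their values were seen. Of the 8 members, 5 matched a RefSeq promoter window, and motifs were chosen after the letters had been read. The 6 cell type lists are given as sums per library. The values of 1 listed gene are not reported here.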

Additional observations from a re-analysis of the deposited data

How the results depend on the processing

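Icam1 was called higher in all 11 alternatives, with log2 fold changes from 3.33 to 3.91 and adjusted p from 1.46e-35 to 0.0124. In each of these 1 ligand was called higher and 0 lower, against 0.497% to 3.61% and 0.105% to 3.79% of all genes. Cd274 (0.52 to 4.19, adjusted p 0.0829 to 1), Icosl (-0.14 to 1.74, 0.413 to 1) and Pvr (0.55 to 0.75, 0.32 to 1) passed in none of them. Over all genes, 106 higher and 55 lower became 489 and 514 with DESeq2, 70 and 23 with limma-voom, 277 and 252 with no filter, and 25 lower when the fit was not robust. Leaving out 1 library gave 66 to 203 higher and 14 to 220 lower. Without Foxp3-DTR C, Icosl turned to -0.14 and H2-Ab1 to -0.35, and H2-Ab1 ranged up to 3.31 (WT A left out). Krt10, at -0.18 with all libraries, was 0.3 with limma-voom and ranged from -2.38 (Foxp3-DTR D left out) to 3.11 (WT A left out), with 0.66 when Foxp3-DTR C was left out. The causes were not tested. Stat3 had an adjusted p of 0.0522 when the fit was not robust. With the longest transcript as gene length, Cd274 and Pvr changed places in the mean order. No paired analysis was possible because the groups share only the letter C. Each fit with 1 library left out compared 1 library with 2, so its adjusted p and calls rest on the spread within 1 group. Depth limits Vcam1, Pdcd1lg2, Cd80 and Cd86, which had 0 to 6 reads in a library.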
